A study of Homo sapiens with 6 samples.

Results

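EWSR1, FLI1 and the ETS transcription factors transcribed beside them were followed in SKNMC, a Ewing sarcoma cell line. The genes were chosen by name. They are FLI1 and EWSR1, whose parts make up the EWS-FLI1 fusion, and the ETS factors ERG, ETS1, ETS2, GABPA, ELK1, ELF1, ETV6 and ERF, 10 of the 22604 genes in the count table. RNA-seq was done on cells that received V5-tagged wild-type NFIB (NFIB WT), V5-tagged NFIB without its intrinsically disordered region (NFIB ΔIDR) or an empty expression vector (EV), with 2 libraries per group. The study's methods describe lentiviral delivery with puromycin selection. The labels name no change to the endogenous NFIB or EWS-FLI1 genes in any group, and 1 cell line was used. The comparisons address whether RNA linked to the fusion, or of ETS factors that could bind the same DNA, moved with NFIB.

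ETS factors share a DNA-binding domain that reads a GGAA core. In EWS-FLI1, the disordered amino-terminal part of EWSR1, an RNA-binding protein of the FET family, is joined to the part of FLI1 that holds this domain, and the EWSR1 promoter drives the fusion RNA. The fusion binds GGAA repeats as well as single ETS sites, where other ETS factors can also bind. Counts per gene do not separate the fusion from the intact alleles: EWSR1 counts hold intact EWSR1 RNA together with the first part of the fusion RNA, and FLI1 counts hold the last part of the fusion RNA with any intact FLI1 RNA.

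The promoters of EWSR1 and ETS2 are printed because the first drives the fusion and ETS2 was the single gene of the 10 whose RNA passed the test in any comparison. RefSeq windows (GRCh38.p14), each of 300 bases with 250 before and 50 after an annotated start, matched 8 of the 10 genes in 16 windows. FLI1 and ETS1 are named only. Capitals mark GGAA or its reverse complement TTCC, read on both strands. The EWSR1 window lies on the plus strand at chr22:29268018-29268317, and those of the annotated ETS2 starts lie on the plus strand at chr21:38804933-38805232 and chr21:38805679-38805978.
EWSR1: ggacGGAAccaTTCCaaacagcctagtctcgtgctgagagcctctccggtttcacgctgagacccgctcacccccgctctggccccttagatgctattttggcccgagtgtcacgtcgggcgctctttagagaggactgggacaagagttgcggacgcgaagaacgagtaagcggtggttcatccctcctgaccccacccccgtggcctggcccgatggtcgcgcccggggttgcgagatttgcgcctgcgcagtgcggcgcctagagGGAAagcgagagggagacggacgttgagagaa
ETS2 upstream start: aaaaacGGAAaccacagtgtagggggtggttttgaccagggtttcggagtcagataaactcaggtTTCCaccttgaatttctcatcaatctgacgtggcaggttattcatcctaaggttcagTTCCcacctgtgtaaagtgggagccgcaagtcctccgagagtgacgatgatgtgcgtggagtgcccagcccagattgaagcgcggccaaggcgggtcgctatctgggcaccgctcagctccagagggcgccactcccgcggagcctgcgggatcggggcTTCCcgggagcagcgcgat
ETS2 downstream start: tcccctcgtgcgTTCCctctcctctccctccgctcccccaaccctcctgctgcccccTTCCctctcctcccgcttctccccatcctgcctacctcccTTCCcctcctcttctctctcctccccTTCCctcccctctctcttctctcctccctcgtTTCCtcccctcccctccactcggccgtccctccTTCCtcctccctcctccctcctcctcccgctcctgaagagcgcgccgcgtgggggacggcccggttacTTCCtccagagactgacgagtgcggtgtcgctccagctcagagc
The EWSR1 window held 3 matches to GGAA. The ETS2 windows held 4 at the upstream start and 7 at the downstream start. GGAA was found in 15 of the 16 windows of these genes and in 95.45% of 35116 RefSeq promoter windows of this length, whose median was 3 matches. The tandem GGAAGGAA was in 2 of the 16 windows, 1 of ELF1 and 1 of ERF, in none of the 3 printed, and in 3.674% of all windows. TGGCA, a partial site of nuclear factor I proteins, occurred in 6 of the 16 windows and in 47.57% of all windows, with 1 match at the upstream ETS2 start and none in the EWSR1 window or at the downstream ETS2 start. These matches describe letters in a window and are no measure of binding.

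NFIB RNA was checked first, because it was the gene put into the cells. In CPM (library counts scaled to a common total, with TMM factors), it had 969 and 1051 CPM in NFIB WT cells, 2227 and 2332 CPM in NFIB ΔIDR cells, and 176 and 145 CPM in EV cells. NFIB RNA was therefore higher with both constructs than with EV, and it was not matched between them. With NFIB WT it was 0.443 times that with NFIB ΔIDR (edgeR adjusted p = 0.000191). These counts hold endogenous NFIB RNA together with construct RNA, so this is not a ratio of the constructs alone. Ewing sarcoma markers were present in every library, with 7 of 8 listed genes in the table, none at 0 in any group, and summed levels of 2316 to 2394 CPM in NFIB WT cells, 1947 to 2015 CPM in NFIB ΔIDR cells and 2018 to 2036 CPM in EV cells. CCND1 was most of that sum, with 1580 CPM in NFIB WT cells, 1182 CPM in NFIB ΔIDR cells and 1257 CPM in EV cells, and 4 of the 7 markers had negative log2 fold changes with NFIB WT against EV. Of the other cell types that use FLI1, ERG or ETS1, endothelial markers (5 of 5 in the table) summed to 1.80 to 3.75 CPM in NFIB WT cells, 3.25 to 3.69 CPM in NFIB ΔIDR cells and 3.28 to 3.47 CPM in EV cells. The 4 blood markers in the table summed to 252 to 274 CPM in NFIB WT cells, 283 to 313 CPM in NFIB ΔIDR cells and 257.9 to 258.1 CPM in EV cells, nearly all of it PTPRC, and 2 of them were at 0 with NFIB WT, 0 with NFIB ΔIDR and 1 with EV. Fibroblast markers (5 of 5) summed to 380 to 385 CPM in NFIB WT cells, 240 to 245 CPM in NFIB ΔIDR cells and 247 to 265 CPM in EV cells. DCN, LUM and COL3A1 made up most of that sum, while PDGFRA and COL1A1 had log2 fold changes of -0.94 and -0.49 with NFIB WT against EV, and the part of these markers in the results was not tested. Library totals were 6664231 to 8465572 counts, so that 1 CPM stood for 6.66 counts in the smallest library. The libraries of NFIB WT differed most from each other, with an SD of the log2 difference between replicates of 0.376 over genes, against 0.279 with NFIB ΔIDR and 0.281 with EV.

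FLI1 RNA, whose 3′ part the fusion carries, did not pass the test in any comparison. FLI1 (chr11:128556430-128683162, plus strand, hg19) had 97.9 and 89.8 CPM in NFIB WT cells, 90.1 and 85.6 CPM in NFIB ΔIDR cells, and 91.04 and 91.06 CPM in EV cells. The libraries of NFIB WT and EV overlapped, and both NFIB ΔIDR libraries lay below both EV libraries by a small margin. The log2 fold change was 0.04 with NFIB WT against EV (95% interval -0.16 to 0.25, edgeR adjusted p = 0.874), which bounds the fold between 0.893 and 1.19. With NFIB ΔIDR against EV it was -0.05 (-0.26 to 0.16, edgeR adjusted p = 0.856), and with NFIB WT against NFIB ΔIDR 0.09 (-0.11 to 0.30, edgeR adjusted p = 0.550). A missed threshold does not show equal levels. FLI1 shares exon sequence with SENCR and another annotated gene on the opposite strand.

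EWSR1 RNA, which the fusion shares at its 5′ part, was also not called. EWSR1 (chr22:29663998-29696515, plus strand, hg19) had 204 and 228 CPM in NFIB WT cells, 238 and 240.0 CPM in NFIB ΔIDR cells, and 239 and 245 CPM in EV cells. Both NFIB WT libraries lay below the others, while NFIB ΔIDR and EV overlapped. The log2 fold change was -0.16 with NFIB WT against EV (-0.35 to 0.03, edgeR adjusted p = 0.434) and -0.15 with NFIB WT against NFIB ΔIDR (-0.34 to 0.04, edgeR adjusted p = 0.293). With NFIB ΔIDR against EV it was -0.01 (-0.20 to 0.18, edgeR adjusted p = 0.963). Without NFIB WT replicate 2, the EWSR1 log2 fold change was -0.24 against EV and -0.23 against NFIB ΔIDR. Without replicate 1 the values were -0.09 and -0.07. Each of these fits rests on 1 NFIB WT library, so only the size of the change is given. EWSR1 shares exon sequence with RHBDD3 on the opposite strand, and the use of strand in counting is not stated.

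The ratio of FLI1 to EWSR1 counts within a library was 0.4805 and 0.394 with NFIB WT, 0.378 and 0.357 with NFIB ΔIDR, and 0.382 and 0.372 with EV. It averaged 0.437 ± 0.0608 with NFIB WT and 0.377 ± 0.00647 with EV (SD, n = 2 each). Both NFIB WT libraries lay above the 4 others, by a wide margin in replicate 1 and a narrow one in replicate 2. An exact two-sided permutation test gave p = 0.333 for NFIB WT against EV, the smallest that 2 libraries against 2 allow. With NFIB ΔIDR, the mean ratio was 0.367 ± 0.0150 (SD, n = 2), with an exact permutation p of 0.667 against EV.

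**Figure D1:**
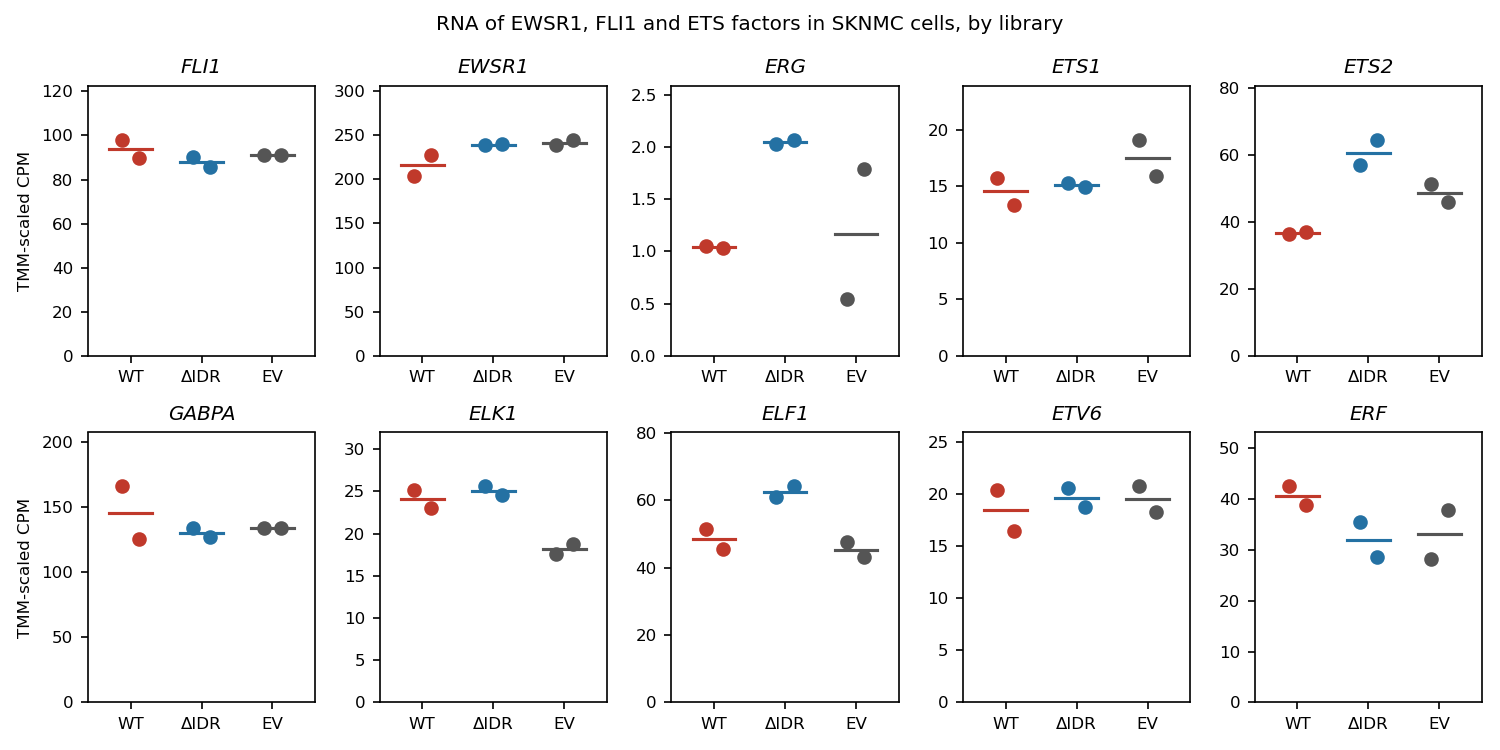
RNA level of the 10 genes in TMM-scaled CPM (y axis, from 0, a scale of its own per gene) for NFIB WT, NFIB ΔIDR and EV (x axis); each point is a library and each line the mean of 2 libraries. The ETS2 points of NFIB WT (36.4 and 37.0 CPM) lie below all others, and those of NFIB ΔIDR (56.8 and 64.4 CPM) above all others.

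ERG, the closest relative of FLI1 in the family and its substitute in a minority of Ewing sarcomas, was near the limit of detection. ERG (chr21:39751949-40033704, minus strand, hg19) had 7 and 8 counts with NFIB WT, 15 and 14 counts with NFIB ΔIDR, and 4 and 15 counts with EV, and 1.05 and 1.03 CPM in NFIB WT cells, 2.03 and 2.07 CPM in NFIB ΔIDR cells, and 0.546 and 1.79 CPM in EV cells. The EV libraries spanned those of NFIB WT, and the word expressed is weak for this gene. Its log2 fold changes were -0.21 with NFIB WT against EV (-1.42 to 0.998), 0.75 with NFIB ΔIDR against EV (-0.29 to 1.80) and -0.97 with NFIB WT against NFIB ΔIDR (-2.07 to 0.14), with edgeR adjusted p of 0.895, 0.511 and 0.238. No difference was detectable at this depth.

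ETS2, an activator whose protein is a target of RAS and MAP kinase signalling, had the lowest levels with NFIB WT and the highest with NFIB ΔIDR. ETS2 (chr21:40177107-40196879, plus strand, hg19) had 36.4 and 37.0 CPM in NFIB WT cells (243 and 287 counts), 56.8 and 64.4 CPM in NFIB ΔIDR cells (420 and 436 counts), and 51.2 and 46.0 CPM in EV cells (375 and 385 counts). The 3 groups did not overlap. ETS2 was lower with NFIB WT than with NFIB ΔIDR by edgeR, at a log2 fold change of -0.72 ± 0.11 (SE; 95% interval -0.97 to -0.48), or 0.606-fold (0.511 to 0.719), with an adjusted p of 0.00385, and DESeq2 gave an adjusted p of 0.0014. It was the single called gene of the 10 in this comparison, in which 10.7% of the 13501 tested genes were called (5.52% higher and 5.19% lower), so that 1 of 10 is near the background and is no result about the genes as a group. Against EV, the log2 fold change was -0.40 with NFIB WT (-0.65 to -0.15, edgeR adjusted p = 0.164) and 0.32 with NFIB ΔIDR (0.08 to 0.56, edgeR adjusted p = 0.199). Neither passed the adjusted threshold, so neither construct is shown to differ from EV for ETS2, while the difference between the constructs was. Over 13 alternatives, ETS2 was called with NFIB WT against EV in 2, which each rest on 1 NFIB WT library. With NFIB ΔIDR against EV it was called in 3, a fit of those groups alone and each fit without an NFIB WT library. Leaving out NFIB ΔIDR replicate 2 ended the ETS2 call between the constructs (log2 fold change -0.63). The constructs also differed in NFIB RNA, and the part of that level in the ETS2 difference was not tested. The upstream ETS2 window printed above matches hg19 with its start 124 bases from the start deposited with the counts. ETS2 shares exon sequence with an annotated gene without a symbol on the opposite strand.

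**Figure D2:**
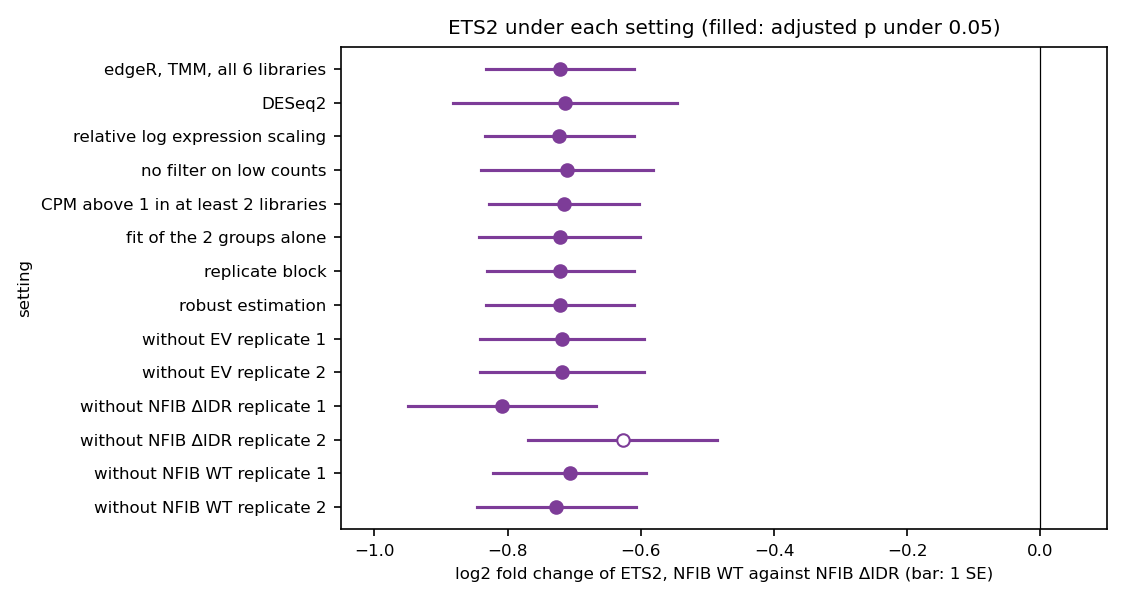
Log2 fold change of ETS2, NFIB WT against NFIB ΔIDR (x axis), under each processing setting (y axis); points are estimates, bars 1 SE, and filled points have an adjusted p under 0.05. All values lie between -0.81 and -0.63, and the open point is the fit without NFIB ΔIDR replicate 2.

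ETS1, the paralog of ETS2, was not called in any comparison. ETS1 (chr11:128328656-128457453, minus strand, hg19) had 15.7 and 13.4 CPM in NFIB WT cells, 15.3 and 14.9 CPM in NFIB ΔIDR cells, and 19.1 and 15.9 CPM in EV cells. Both construct groups lay below EV and overlapped each other. The log2 fold changes were -0.26 with NFIB WT against EV (-0.60 to 0.07), -0.21 with NFIB ΔIDR against EV (-0.54 to 0.13) and -0.06 with NFIB WT against NFIB ΔIDR (-0.40 to 0.29), and edgeR adjusted p was 0.471, 0.575 and 0.846. Whether ETS1 and ETS2 differ in their response was not tested. The number of ETS2 counts per ETS1 count was 2.31 and 2.76 with NFIB WT, 3.72 and 4.32 with NFIB ΔIDR, and 2.68 and 2.89 with EV.

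GABPA, the DNA-binding subunit of the GA-binding protein, which works with a GABPB partner, was not called. GABPA (chr21:27106881-27144771, plus strand, hg19) had 166 and 126 CPM in NFIB WT cells, 134 and 127 CPM in NFIB ΔIDR cells, and 134.03 and 133.96 CPM in EV cells. A single library, NFIB WT replicate 1, stood above the other 5. The log2 fold change was 0.12 with NFIB WT against EV (-0.15 to 0.39) and -0.04 with NFIB ΔIDR against EV (-0.30 to 0.23), with edgeR adjusted p of 0.682 and 0.926. With NFIB WT against NFIB ΔIDR it was 0.16 (-0.11 to 0.43, edgeR adjusted p = 0.427). With NFIB WT replicate 1 alone, the GABPA log2 fold change against EV was 0.31, and with replicate 2 alone it was -0.09. Only the size of the change is given, as each fit rests on 1 NFIB WT library. In such fits the lone library is assumed to vary like those of the other groups. GABPA shares exon sequence with ATP5PF on the opposite strand.

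ELK1, a ternary complex factor that binds with SRF at serum response elements, lay above EV with both constructs without passing the adjusted test. ELK1 (chrX:47494920-47510003, minus strand, hg19) had 25.2 and 23.1 CPM in NFIB WT cells, 25.6 and 24.5 CPM in NFIB ΔIDR cells, and 17.6 and 18.8 CPM in EV cells. All 4 construct libraries lay above both EV libraries, and the constructs overlapped. The log2 fold change was 0.40 with NFIB WT against EV (0.13 to 0.68, edgeR adjusted p = 0.207) and 0.46 with NFIB ΔIDR against EV (0.19 to 0.73, edgeR adjusted p = 0.118). Both comparisons share the EV libraries. With NFIB WT against NFIB ΔIDR it was -0.06 (-0.32 to 0.21, edgeR adjusted p = 0.798). ELK1 was called with NFIB ΔIDR against EV in 3 of 13 alternatives, at edgeR adjusted p from 0.0053 without NFIB WT replicate 2 to 0.558 without NFIB ΔIDR replicate 1, and DESeq2 gave 0.603. ELK1 with NFIB WT against EV had a log2 fold change of 0.34 without NFIB WT replicate 1 and 0.47 without replicate 2. Those 2 fits rest on 1 NFIB WT library each, so only the size of the change is given. No alternative that kept both NFIB WT libraries called ELK1 in this comparison.

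ELF1, a factor of the ELF subfamily known from blood cells, had its highest values with NFIB ΔIDR. ELF1 (chr13:41506060-41635576, minus strand, hg19) had 51.6 and 45.5 CPM in NFIB WT cells, 61.0 and 64.1 CPM in NFIB ΔIDR cells, and 47.5 and 43.1 CPM in EV cells. The NFIB ΔIDR libraries lay above the 4 others, and NFIB WT overlapped EV. The log2 fold change was 0.47 with NFIB ΔIDR against EV (0.23 to 0.70, edgeR adjusted p = 0.0855) and -0.37 with NFIB WT against NFIB ΔIDR (-0.61 to -0.13, edgeR adjusted p = 0.0542). With NFIB WT against EV it was 0.10 (-0.14 to 0.34, edgeR adjusted p = 0.725). Over 13 alternatives, ELF1 was called in 5 with NFIB ΔIDR against EV, at edgeR adjusted p from 7.02e-06 in a fit of those groups alone to 0.548 without EV replicate 2, and DESeq2 gave 0.234. With NFIB WT against NFIB ΔIDR it was called in 4 of 13, and DESeq2 gave an adjusted p of 0.219. Its log2 fold change in this comparison lay between -0.46 and -0.27 when a library was left out.

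The repressors ETV6 and ERF were not called. ETV6 (chr12:11802608-12048311, plus strand, hg19) had 20.4 and 16.5 CPM in NFIB WT cells, 20.6 and 18.7 CPM in NFIB ΔIDR cells, and 20.7 and 18.3 CPM in EV cells, and all 3 groups overlapped. Its log2 fold changes lay between -0.10 and 0.02, with edgeR adjusted p from 0.701 to 0.976. ERF (chr19:42751721-42759280, minus strand, hg19) is a repressor inactivated by ERK phosphorylation. ERF had 42.4 and 38.9 CPM in NFIB WT cells, 35.4 and 28.5 CPM in NFIB ΔIDR cells, and 28.3 and 37.9 CPM in EV cells. Both NFIB WT libraries lay above the 4 others, and the EV libraries spanned both NFIB ΔIDR libraries. Its log2 fold change was 0.29 with NFIB WT against EV (-0.05 to 0.63, edgeR adjusted p = 0.432) and 0.34 with NFIB WT against NFIB ΔIDR (-0.00104 to 0.69, edgeR adjusted p = 0.183). With NFIB ΔIDR against EV it was -0.05 (-0.40 to 0.30, edgeR adjusted p = 0.921). ERF shares exon sequence with an annotated gene without a symbol on the same strand.

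Over the 10 genes, all of which passed the filter on low counts, edgeR called 0 with NFIB WT against EV, where 0.615% of all genes were called (0.452% higher and 0.163% lower), and 0 with NFIB ΔIDR against EV, where 0.652% were called (0.296% higher and 0.356% lower). DESeq2 also called 0 in both. At an unadjusted edgeR p under 0.05 there were 2 with NFIB WT against EV (ETS2 and ELK1; 13.4% of all genes), 3 with NFIB ΔIDR against EV (ETS2, ELK1 and ELF1; 15.2%) and 2 with NFIB WT against NFIB ΔIDR (ETS2 and ELF1; 27.5%). Libraries of the compared groups did not overlap for 5 of the 10 genes with NFIB WT against EV (42.9% of all genes), 6 with NFIB ΔIDR against EV (53.3%) and 5 with NFIB WT against NFIB ΔIDR (55.3%), shares near those of all genes. A fold of at least 1.5 with an unadjusted p under 0.05 was reached by 0 of the 10 with NFIB WT against EV (3.88% of all genes), 0 with NFIB ΔIDR against EV (4.77%) and 1, ETS2, with NFIB WT against NFIB ΔIDR (9.98%). For the 10 genes, log2 fold changes had a median of -0.02 with NFIB WT against EV, 0.000606 with NFIB ΔIDR against EV and -0.08 with NFIB WT against NFIB ΔIDR, beside 0.00414, 0.00132 and -0.000872 for all tested genes.

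**Figure D3:**
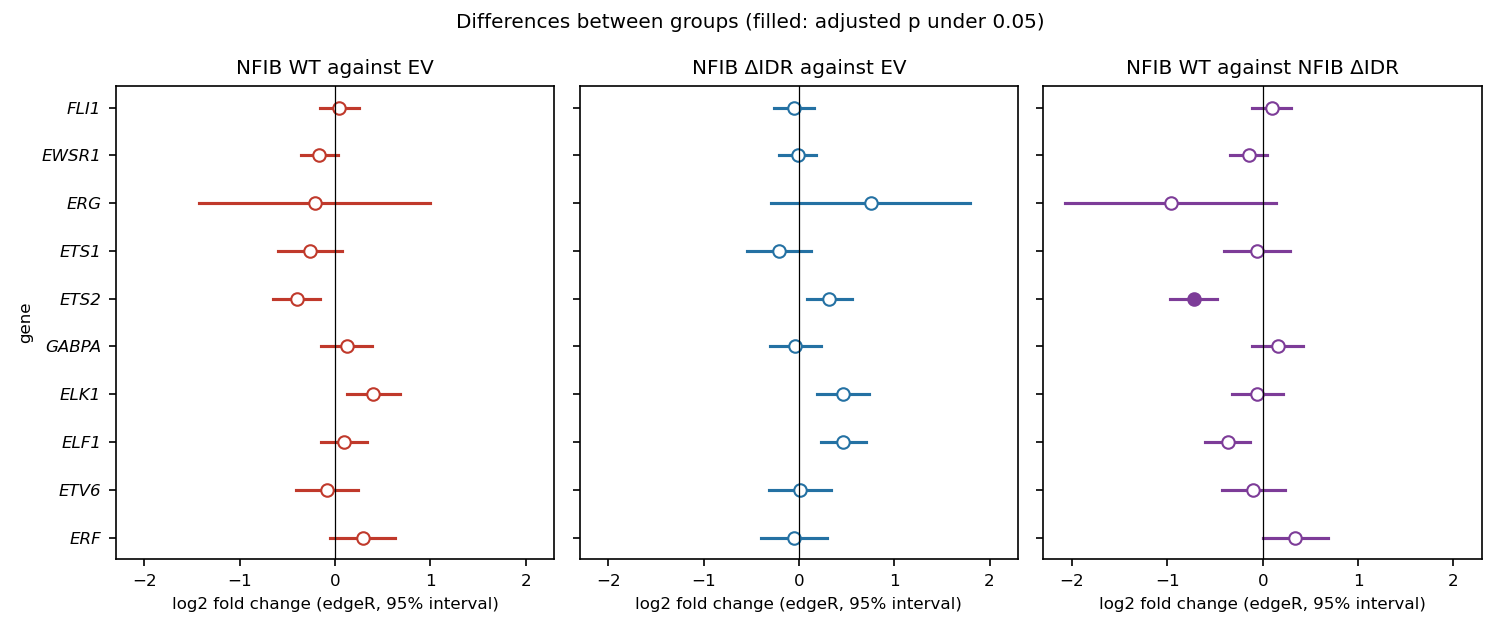
Log2 fold change (x axis) of the 10 genes (y axis) in NFIB WT against EV, NFIB ΔIDR against EV and NFIB WT against NFIB ΔIDR; points are edgeR estimates, bars 95% intervals, and filled points have an adjusted p under 0.05. The filled point is ETS2 at -0.72, and the ERG bars are the widest.

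To compare levels between genes, counts were scaled by gene length and depth (TPM). Among the 10 genes, EWSR1 led with 206 ± 12.9 TPM with NFIB WT, 239 ± 1.21 TPM with NFIB ΔIDR and 236 ± 1.502 TPM with EV (SD, n = 2 each). GABPA followed with 78.6 TPM with NFIB WT, 73.4 TPM with NFIB ΔIDR and 73.6 TPM with EV, and FLI1 was next with 60.6 TPM with NFIB WT, 59.3 TPM with NFIB ΔIDR and 60.01 TPM with EV. The fusion RNA holds only part of EWSR1 and of FLI1, so their TPM are not counts of whole molecules. ERF, ELF1 and ETS2 came next, at 40.0, 36.7 and 25.4 TPM with NFIB WT, at 32.9, 49.4 and 43.9 TPM with NFIB ΔIDR, and at 33.1, 34.9 and 34.4 TPM with EV. With EV, the 3 did not differ beyond their spread. With NFIB ΔIDR the libraries of ELF1, ETS2 and ERF fell in that order without overlap, and with NFIB WT ETS2 lay below both others. ELK1 (23.4 TPM with NFIB WT, 25.3 TPM with NFIB ΔIDR and 18.0 TPM with EV) lay above ETV6 and ETS1, which overlapped with NFIB WT and with EV. ERG was last of the 10 in every group, at 0.382 TPM with NFIB WT, 0.787 TPM with NFIB ΔIDR and 0.437 TPM with EV.

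The table held 25 ETS genes, of which 16 were tested and 9 had only 2 to 17 counts over all libraries. ELF2, outside the 10, had means of 89.8 TPM with NFIB WT, 94.9 TPM with NFIB ΔIDR and 95.3 TPM with EV, above the means of GABPA and FLI1. With NFIB WT, the libraries of ELF2 (83.3 and 96.2 TPM) and GABPA (90.3 and 67.0 TPM) overlapped. The summed level of the 25 ETS genes was 508 and 462 TPM with NFIB WT, 518 and 507 TPM with NFIB ΔIDR, and 479 and 468 TPM with EV. FLI1 made up 12.6% and 12.4% of that sum with NFIB WT, 11.8% and 11.3% with NFIB ΔIDR, and 12.6% and 12.7% with EV. The FLI1 share was thus lowest in both NFIB ΔIDR libraries, and no test was made of it.

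**Figure D4:**
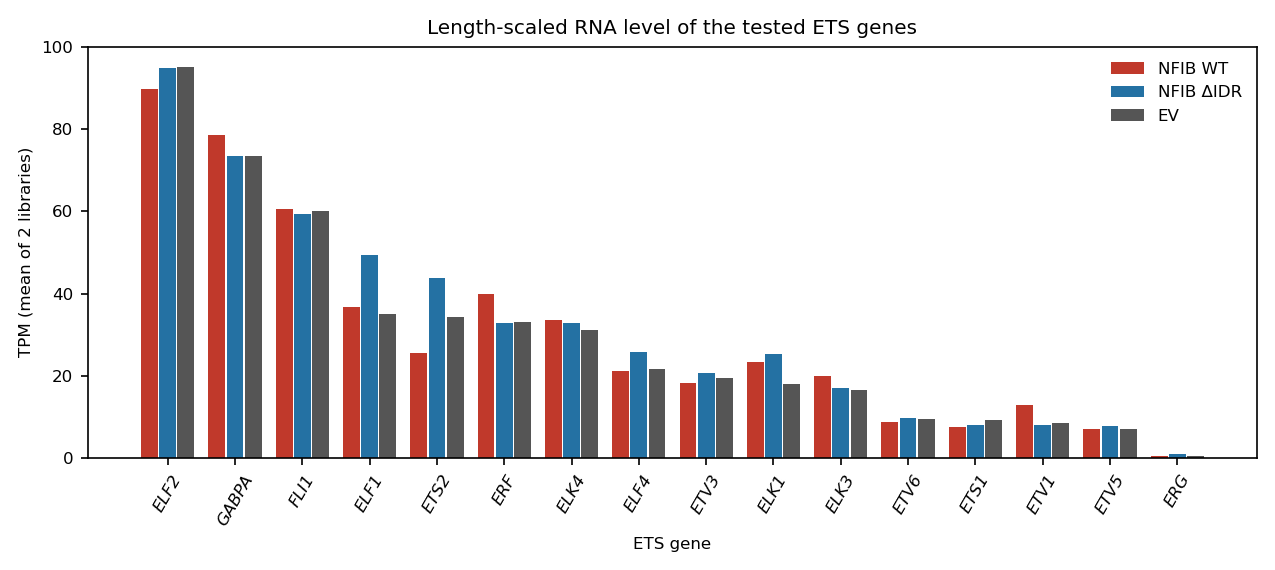
Mean TPM of 2 libraries per group (y axis, from 0; no error bars) for the 16 tested ETS genes (x axis, ordered by level), with NFIB WT, NFIB ΔIDR and EV bars. FLI1 stands at 60.6 TPM with NFIB WT, 59.3 TPM with NFIB ΔIDR and 60.01 TPM with EV, and ETS2 at 25.4, 43.9 and 34.4 TPM in these groups.

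Among 7 other tested ETS genes, 0 were called against EV by edgeR with either construct, and 1 was called between the constructs, a share near the 10.7% of all genes. DESeq2 also called 0 against EV, and at an unadjusted edgeR p under 0.05 there were 2 with NFIB WT and 0 with NFIB ΔIDR, beside 13.4% and 15.2% of all genes. ETV1, a PEA3 subfamily activator, had 39.1 and 29.8 CPM in NFIB WT cells, 20.4 and 21.3 CPM in NFIB ΔIDR cells, and 21.4 and 22.8 CPM in EV cells. Its level with NFIB WT was above that with NFIB ΔIDR (log2 fold change 0.72 ± 0.15, edgeR adjusted p = 0.0133). Against EV, the log2 fold change of ETV1 was 0.63 with NFIB WT (edgeR adjusted p = 0.0830) and -0.09 with NFIB ΔIDR. ETV1 and ETS2 therefore lay on opposite sides of 0 in NFIB WT against NFIB ΔIDR. The ETV1 call was lost when NFIB ΔIDR replicate 1 (edgeR adjusted p = 0.141) or replicate 2 (0.122) was left out.

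TAF15, a FET protein like EWSR1, was lower with NFIB WT than with NFIB ΔIDR (log2 fold change -0.63, edgeR adjusted p = 0.0174). TAF15 had 47.1 and 64.5 CPM in NFIB WT cells, 87.3 and 85.6 CPM in NFIB ΔIDR cells, and 64.6 and 58.3 CPM in EV cells. Of 7 tested partners of ETS factors, 3 were lower with NFIB WT than with NFIB ΔIDR (5.19% of all genes were) and 0 were called against EV by edgeR or DESeq2 (1 with NFIB WT and 3 with NFIB ΔIDR at an unadjusted edgeR p under 0.05, beside 13.4% and 15.2% of all genes). The 3 were GABPB2, an activation subunit for GABPA (-0.57, edgeR adjusted p = 0.0133), and the acetyltransferases EP300 (-0.54, edgeR adjusted p = 0.0221) and CREBBP (-0.54, edgeR adjusted p = 0.0321). Against EV, GABPB2, EP300 and CREBBP had log2 fold changes of -0.20, -0.13 and -0.05 with NFIB WT. With NFIB ΔIDR against EV they had 0.37, 0.41 and 0.49, so the larger part of each difference lay between NFIB ΔIDR and EV, though not called. EP300 had 111 and 144 CPM in NFIB WT cells, 188 and 184 CPM in NFIB ΔIDR cells, and 129 and 150.2 CPM in EV cells, so NFIB WT overlapped EV. Each of these 4 calls was lost when either NFIB ΔIDR library was left out, at edgeR adjusted p from 0.127 to 0.247. GABPB2 also missed the threshold by DESeq2 (adjusted p = 0.0573), and in a fit of the construct groups alone CREBBP and EP300 missed it by edgeR (adjusted p = 0.0786 and 0.0515). Over 13 alternatives, the call held in 11 for TAF15, 10 for GABPB2, 10 for EP300 and 8 for CREBBP.

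Genes known to respond to EWS-FLI1 were counted beside its partners. Of 20 genes raised by it elsewhere, all tested, edgeR called 2 higher and 0 lower with NFIB WT against EV (0.615% of all genes were called), 0 with NFIB ΔIDR against EV (0.652%), and 5 higher and 1 lower with NFIB WT against NFIB ΔIDR (5.52% and 5.19% of all genes). Their log2 fold changes had medians of -0.07, -0.08 and 0.09 in these comparisons, beside the values near 0 for all genes given above. The 2 called with NFIB WT against EV were CAV1, a caveolae coat protein (0.87, edgeR adjusted p = 0.0114), and LIPI, a lipase (0.62, edgeR adjusted p = 0.0376). Both kept the call by DESeq2 (adjusted p = 1.01e-07 and 0.00854) and with a replicate block (edgeR adjusted p = 0.00105 and 0.0109). Each was called in 8 of 13 alternatives, including those that left out an NFIB WT library. Both lost the call in a fit of those groups alone (edgeR adjusted p = 0.0932 and 0.182), where 13 of 13195 genes were called. They also lost it when any EV or NFIB ΔIDR library was left out. Of 12 genes known to be lowered by EWS-FLI1, edgeR called 2 higher and 1 lower with NFIB WT against EV, 0 with NFIB ΔIDR against EV, and 2 higher and 3 lower with NFIB WT against NFIB ΔIDR, beside the same shares of all genes, with medians of 0.53, 0.13 and 0.24. With NFIB ΔIDR against EV, DESeq2 also called 0 in both lists, and at an unadjusted edgeR p under 0.05 (15.2% of all genes) 2 genes of the first lay higher and 2 lower, and 2 of the second lay higher. These lists were written with earlier results of these data known, and their counts are a description beside FLI1 and EWSR1.

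Over the 6 libraries, the genes whose log2 CPM followed FLI1 most closely among 9015 genes were BMT2 (Pearson r = 0.991), BTBD3 (0.989) and NIPSNAP3A (0.989). For EWSR1 they were RBM25 (0.992), MRPL48 (0.992) and LRRCC1 (0.992). FLI1 moved over a range of only 0.19 log2 units and EWSR1 over 0.26, and the libraries share groups and depth, so these are the highest of many values and carry no test.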

How the data were processed

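RNA-seq of SKNMC cells gave 6 libraries in 3 groups of 2, which the study's methods call biological duplicates. The edgeR p-values set a difference against the spread of libraries within groups, estimated over all 3 groups and partly shared between genes. The authors converted reads with CASAVA 2.19, aligned them to hg19 with STAR 2.4.0h and used featureCounts on RefSeq genes; the deposited values are whole counts per gene, not normalized. The CORALL kit marks strand and adds molecular identifiers. The sources used here give neither the strand setting nor whether identifiers were used.

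edgeR 4.0.16 (R 4.3.3) was run on these counts with TMM factors and its quasi-likelihood test, fitting all 6 libraries at once. Genes passed filterByExpr at a minimum count of 10 and total of 15. Benjamini-Hochberg adjustment covered 13501 genes, with calls under 0.05. TPM used the deposited gene length. Intervals cover 95%. All 10 genes were named whatever their values. Of the called list genes, some were named and others only counted. ELF2 and some cell type markers were also named, whether or not they were called. The genes and lists were chosen with earlier results of these data known. Alternatives were DESeq2 1.42.0, other scaling and filters, fits of 2 groups, a replicate block, robust estimation and leaving out each library. The steps were tested on simulated data. Genes were placed on hg19 with GENCODE, promoters are RefSeq windows, and figures were drawn with matplotlib 3.10.9.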

Additional observations from a re-analysis of the deposited data

Results flagged for a closer look

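ETS2 stood out because its difference between the 2 constructs passed the adjusted threshold, which no other gene chosen by name did. The constructs also had opposite signs against EV for ETS2. That alone does not set it apart, as FLI1, ERG, GABPA, ETV6 and ERF had opposite signs too. For NFIB WT against EV, ETS2 had a log2 fold change of -0.40, for NFIB ΔIDR against EV it had 0.32, and neither passed the adjusted threshold. The difference, NFIB WT against NFIB ΔIDR, was -0.72 (edgeR adjusted p = 0.00385). Both NFIB WT libraries lay below both EV libraries, and both NFIB ΔIDR libraries lay above them. No cause was tested.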

How the results depend on the processing

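Among the 10 genes, ETS2 in NFIB WT against NFIB ΔIDR kept its call in 12 of 13 alternatives (-0.81 to -0.63). The number of the 10 called with NFIB WT against EV was 0, also in each alternative other than leaving out a library. With NFIB ΔIDR against EV it was 0, with 1 without a filter (550 of 22604 genes called) and 3 in a fit of those groups alone (1883 of 13287). With NFIB WT against NFIB ΔIDR it was 1, with 2 without a filter (2280 of 22604). Leaving out a library rests a group on 1 library, so no counts of the 10 are given for those fits. The labels do not say whether replicate numbers pair the libraries. Over genes, the log2 difference between replicates correlated at 0.153 for NFIB WT and EV, 0.0156 for NFIB ΔIDR and EV, and 0.0539 for the constructs. Apart from the replicate block, the fits used no pairing. With a replicate block, 1 gene was called with NFIB ΔIDR against EV and 2 with NFIB WT against NFIB ΔIDR, ELF1 being added in each (adjusted p = 0.0448 and 0.0326, edgeR), and 0 with NFIB WT against EV. When a library was left out, the sign turned for small changes. With NFIB WT against EV the ranges were -0.019 to 0.11 (FLI1), -0.77 to 0.91 (ERG), -0.088 to 0.31 (GABPA), -0.24 to 0.072 (ETV6), -0.38 to 0.075 (TAF15), -0.32 to 0.18 (CREBBP) and -0.32 to 0.044 (EP300). With NFIB ΔIDR against EV they were -0.030 to 0.0031 (EWSR1), -0.077 to 0.11 (ETV6) and -0.24 to 0.18 (ERF), and with NFIB WT against NFIB ΔIDR -0.17 to 0.063 (ETS1), -0.049 to 0.35 (GABPA), -0.12 to 0.012 (ELK1) and -0.25 to 0.055 (ETV6). The cause was not tested. Calls among the genes raised by EWS-FLI1 were 2 with NFIB WT against EV (0 to 9 over all alternatives), 0 with NFIB ΔIDR against EV (0 to 6) and 6 with NFIB WT against NFIB ΔIDR (0 to 9), and among those it lowers 3 (0 to 7), 0 (0 to 2) and 5 (1 to 7). Between the constructs, calls were 3 (0 to 3) for ETS partners and 1 (0 to 3) for other ETS genes. Against EV those lists had 0, and up to 3 and 3 with NFIB WT and up to 4 and 0 with NFIB ΔIDR. Over all genes, 83 calls with NFIB WT against EV became 541 without a filter, 13 in a fit of 2 groups, 188 with the block and 9 to 3051 when a library was left out. The 88 calls with NFIB ΔIDR against EV became 550, 1883, 241 and 4 to 1853, and the 1446 with NFIB WT against NFIB ΔIDR became 2280, 680, 2092 and 109 to 4405, with 725 by DESeq2. DESeq2 gave no adjusted p for ERG against EV. At 6664231 counts in the smallest library, ERG is the gene most limited by depth, and with 2 libraries per group small changes of FLI1 and EWSR1 were not resolved.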
